A study of Mus musculus with 12 samples.

Results

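The comparison described here set mouse embryonic stem (ES) cells depleted of Chd4 against ES cells depleted of Mbd3. Its members were the 2 arrays labelled Chd4 KD and the 2 labelled Mbd3 KD, 4 of the 12 arrays of the series, chosen by label alone. KD stands for knockdown. All groups were feeder-free E14 ES cells grown on gelatin in medium with serum and LIF, transfected in a 10 cm dish by lipofection with endonuclease-prepared siRNA (esiRNA) and harvested after 48 hr. The Chd4 KD and Mbd3 KD cells received esiRNA against the named gene, and the control cells received esiRNA against EGFP (EGFP KD, 2 arrays). The other 6 arrays, 2 each of Dnmt1 KD, Tet1 KD and Mbd2 KD, entered only the estimate of the spread between replicates. RNA was read on one-colour Agilent arrays, and a level below is the log2 of a probe's signal over the 75th percentile of its array, so that a difference of 1 is a 2-fold change. Because whole dishes were measured, fewer cells of a type and less RNA per cell cannot be told apart.

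NuRD is a nucleosome remodelling and deacetylase complex. Chd4 is its ATP-driven remodelling motor, Hdac1 and Hdac2 are its deacetylases, and Mbd3 is a scaffold that joins the deacetylase core to the Gatad2 and Chd4 side. Mbd3 and Mbd2 occupy the same place in alternative forms of the complex, and Chd4 also works outside NuRD, for example with Adnp and HP1 proteins in ChAHP. In ES cells NuRD is known for restraining pluripotency and lineage genes, and a comparison of the knockdowns asks which transcripts respond to loss of the motor, of the scaffold, or of both.

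The 75th percentile lay between 1784.5 and 2451.6 intensity units over the 12 arrays, and 76.9% to 95.2% of 39429 probes were well above background. Both ends of the second range belonged to the comparison. The share was 82.7% and 76.9% on the Mbd3 KD arrays, 95.2% and 86.7% on the Chd4 KD arrays, and 80.9% and 91.7% on the EGFP KD arrays. The arrays came from 3 slides. Replicate 2 of Chd4 KD and of Mbd3 KD shared a slide that held no EGFP KD array, whereas replicate 1 of each lay on a different slide beside 1 EGFP KD array. On the Chd4 KD replicate 2 array, 38 genes lay at the floor of -4.86 although they were higher on each of the other 11 arrays, and their spots all lay in columns 23 to 34 of 85. None of the 38 was called in the limma test described below. Among the arrays used only for the spread, 1 Tet1 probe differed from EGFP KD by -0.02 and -1.81 on the libraries labelled Tet1 KD replicates 1 and 2 and by -1.79 and -0.19 on those labelled Mbd2 KD. An Mbd2 probe showed the reverse, with -1.75 and -0.23 on the libraries labelled Tet1 KD and -0.24 and -1.77 on those labelled Mbd2 KD, so that by these probes the replicate 1 libraries of both groups went against their labels. The other Tet1 probe had the same arrangement (0.23 and -0.93, then -1.18 and 0.25), and the other Mbd2 probe did not (-0.2 and -0.61, then -0.08 and -0.07). No ES cell marker differed between Chd4 KD and Mbd3 KD by the limma test. The probes of Pou5f1, the core ES cell transcription factor, and Dppa5a were saturated on all 6 control, Mbd3 KD and Chd4 KD arrays and those of Esrrb and Zfp42 on 5, so that these show presence and not a level, and the Nanog probe lay near the floor on all 6.

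Each knockdown lowered its own target. Chd4 mRNA stood at 4.13 and 3.97 on the EGFP KD arrays, 3.85 and 4.46 on the Mbd3 KD arrays, and 2.5 and 3.04 on the Chd4 KD arrays. Both Chd4 KD values lay below the other 4, and 41.2% of the control level remained. The fall against EGFP KD passed the limma test, while the difference from Mbd3 KD, -1.39 ± 0.24 (SE, n = 2 arrays a group), had a limma adjusted p of 0.0506. Mbd3 mRNA read 4.33 and 4.49 in EGFP KD, 4.31 and 4.17 in Chd4 KD, and 1.34 and 1.56 in Mbd3 KD. The Mbd3 KD arrays were the lowest by a wide margin, and 12.9% of the control level remained. Mbd3 was 6.92-fold higher in Chd4 KD than in Mbd3 KD (log2 difference 2.79 ± 0.14, SE, limma adjusted p = 0.00078), and its other probe gave 2.54. The knockdowns were therefore of unequal depth at the mRNA level, and protein was not measured here.

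None of the remaining subunits passed the test between the knockdowns. Of 17 NuRD genes listed, 16 were measured, and Mbd3 itself was the 1 called between Chd4 KD and Mbd3 KD. The deacetylase Hdac2 differed by 0.15 ± 0.23 (SE). The Hdac1 probe that stood for the gene was saturated on 1 array of each group, and its other 2 probes differed by 0.22 and -0.12. The histone-binding subunit Rbbp4 differed by 0 ± 0.15 and its relative Rbbp7 by -0.02 ± 0.17. The linker Gatad2a, which holds Chd4 to the complex, differed by 0.32 ± 0.11 and Gatad2b by 0.17 ± 0.19. The Mta proteins, which recruit the deacetylases, differed by -0.33 for Mta1, -0.24 for Mta2 and 0.08 for Mta3. Chd5, a remodeller related to Chd4, read -0.95 and -0.7 in EGFP KD, 0.04 and -0.01 in Mbd3 KD, and 0.37 and 0.56 in Chd4 KD. Its values were higher in both knockdowns than in the control, and the difference between the knockdowns, 0.45 ± 0.3, did not pass the test (limma adjusted p = 0.792).

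**Figure D1:**
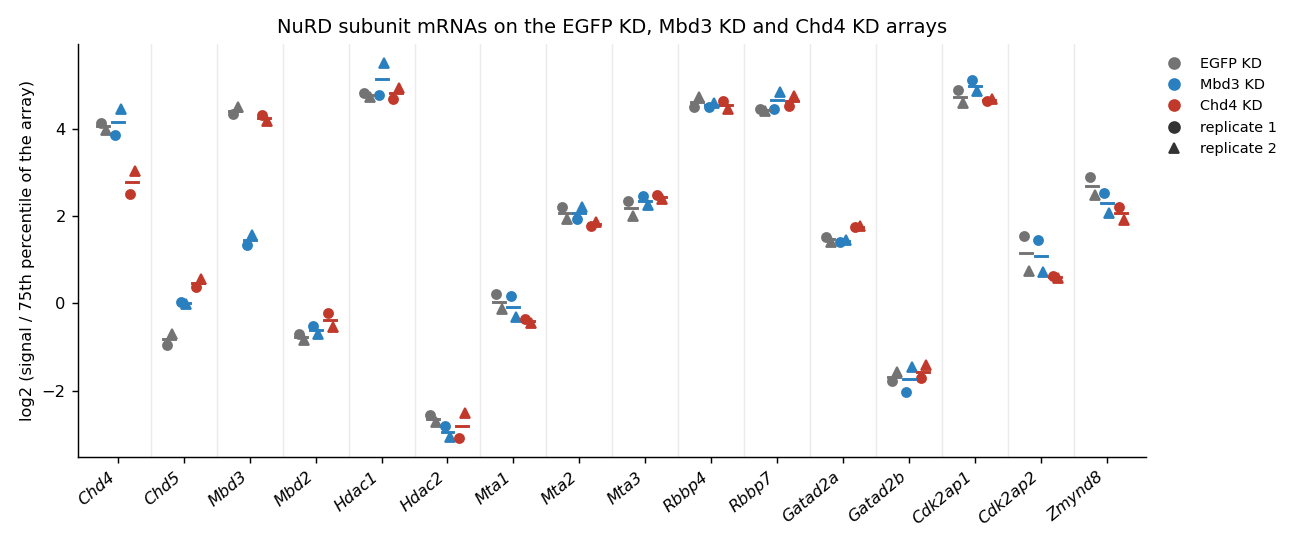
Level of each measured NuRD subunit (vertical axis, log2 of signal over the array's 75th percentile) in EGFP KD (grey), Mbd3 KD (blue) and Chd4 KD (red), with circles for replicate 1, triangles for replicate 2 and horizontal bars for the mean of 2 arrays. Chd4 is lowest on the Chd4 KD arrays (2.5 and 3.04) and Mbd3 on the Mbd3 KD arrays (1.34 and 1.56), and Chd5 is higher in both knockdowns than on the EGFP KD arrays.

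Between Chd4 KD and Mbd3 KD, 434 of 29844 genes were called at an adjusted p under 0.05 by limma, which is 1.45% of those tested. Of these, 311 (1.04% of all genes) were higher in Chd4 KD and 123 (0.412%) were lower, beside a median difference of 0.06 over all genes. The share higher in Chd4 KD was 71.7% here, 61.5% of 13 calls after normexp background correction, and 43.3% of 1403 calls among 12459 genes in the authors' table. Against EGFP KD, Chd4 KD gave 953 called genes (3.19%) and Mbd3 KD 228 (0.764%), and those 2 comparisons share the same control arrays. Many genes called in a single knockdown had no called difference between the knockdowns. With 2 arrays a group, that does not show that they did not differ. Of the 804 genes called in Chd4 KD but not in Mbd3 KD, the difference itself was called in 289 (35.9%), and of the 79 called in Mbd3 KD but not in Chd4 KD it was called in 35 (44.3%). A gene was therefore counted as dependent on Chd4 but not on Mbd3 where the Chd4 KD arrays differed from the control by the test, the knockdowns differed from each other in the same direction, and Mbd3 KD had an unadjusted p of at least 0.05 against the control. The opposite class exchanged the knockdowns. Such a p does not show that a gene was unaffected.

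By that rule 213 genes (0.714% of those tested) depended on Chd4 but not on Mbd3, and 25 (0.0838%) on Mbd3 but not on Chd4. A further 89 of the 434 were called against EGFP KD in neither knockdown, 19 were called in both in the same direction, and 2 were called in both in opposite directions. The rest were called in a single knockdown, with an unadjusted p under 0.05 in the other. Of those called in Chd4 KD, 51 moved in the same direction in both and 25 in opposite directions. Of those called in Mbd3 KD, 5 moved in the same direction and 5 in opposite directions. These counts rested on the spread of all 6 groups. With the EGFP KD, Mbd3 KD and Chd4 KD arrays alone limma called 0 genes between the knockdowns (2894 at an unadjusted p under 0.05), and without the Tet1 KD and Mbd2 KD arrays it called 126.

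The genes that rose with Chd4 KD alone were the largest class. There were 173 of them (0.58% of the genes tested), with a median of 1.3 against EGFP KD and of 1.28 against Mbd3 KD, values that the rule itself selected. Their probes were dim in control cells, with a median EGFP KD level of -3.35 where that of all genes was -1.84. In 8 of them (4.62%) the probe was well above background on neither EGFP KD array, against 1.03% of all genes. Probes well above background were also more frequent on the Chd4 KD than on the Mbd3 KD arrays, as given above. With probes required to be well above background on all 4 arrays, 197 genes were called, 145 of them higher in Chd4 KD.

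X-linked families headed the class. The largest difference belonged to Ctag2l2, a relative of the cancer-testis antigen genes. It read -4.86 and -4.34 in EGFP KD, -4.73 and -4.62 in Mbd3 KD, and -0.89 and -0.69 in Chd4 KD. The Chd4 KD arrays stood far above the other 4, which lay at or near the floor. The difference from Mbd3 KD was 3.88 ± 0.24 (SE, limma adjusted p = 0.00137). Its relative Ctag2l1 also rose, by 2.36 over Mbd3 KD. Fthl17e, a ferritin heavy chain-like gene, read 0.1 and 0.12 in EGFP KD, -0.17 and -0.18 in Mbd3 KD, and 2.79 and 2.36 in Chd4 KD. Both Chd4 KD values lay above the other 4. The rise over Mbd3 KD was 6.72-fold for Fthl17e, 6.24-fold for Fthl17d and 5.69-fold for Fthl17f (limma adjusted p = 0.00215, 0.00194 and 0.000955). A second, dimmer Fthl17f probe differed by 1.04. The fourth measured member, Fthl17a, differed by 0.08 and was not called.

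The promoters of 3 of these genes, which moved together, are printed from the RefSeq table (build GRCm38.p6, 250 bases before to 50 after the listed start) in lower case with each CG dinucleotide in capitals. Ctag2l2 lies at chrX:74740677-74740976, Fthl17e at chrX:9033236-9033535 and Fthl17f at chrX:9062840-9063139, all on the plus strand.
Ctag2l2: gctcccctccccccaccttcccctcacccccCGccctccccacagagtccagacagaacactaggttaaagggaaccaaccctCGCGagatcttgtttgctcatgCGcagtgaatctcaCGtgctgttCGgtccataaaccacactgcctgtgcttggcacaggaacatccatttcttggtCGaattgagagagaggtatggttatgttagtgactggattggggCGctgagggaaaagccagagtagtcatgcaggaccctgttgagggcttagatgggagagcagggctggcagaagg
Fthl17e: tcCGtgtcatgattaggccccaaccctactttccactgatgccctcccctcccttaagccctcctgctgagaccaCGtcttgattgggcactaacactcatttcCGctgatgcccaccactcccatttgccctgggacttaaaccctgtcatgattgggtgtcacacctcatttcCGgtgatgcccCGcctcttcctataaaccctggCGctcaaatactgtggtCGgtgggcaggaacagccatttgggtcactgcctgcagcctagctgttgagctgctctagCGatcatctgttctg
Fthl17f: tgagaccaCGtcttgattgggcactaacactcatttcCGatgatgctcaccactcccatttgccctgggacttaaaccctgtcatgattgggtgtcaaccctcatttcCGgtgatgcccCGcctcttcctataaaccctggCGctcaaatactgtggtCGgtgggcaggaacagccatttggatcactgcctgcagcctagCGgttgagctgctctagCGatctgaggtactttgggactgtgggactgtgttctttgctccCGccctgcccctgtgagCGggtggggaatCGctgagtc
The windows held 8, 8 and 11 CG dinucleotides. The longest stretch common to Fthl17e and Fthl17f was 83 bases, that common to Fthl17d and Fthl17e was 225, and that common to Ctag2l1 and Ctag2l2 was 94. Genes this alike may share a probe's signal, so values for single members of these families are uncertain.

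**Figure D2:**
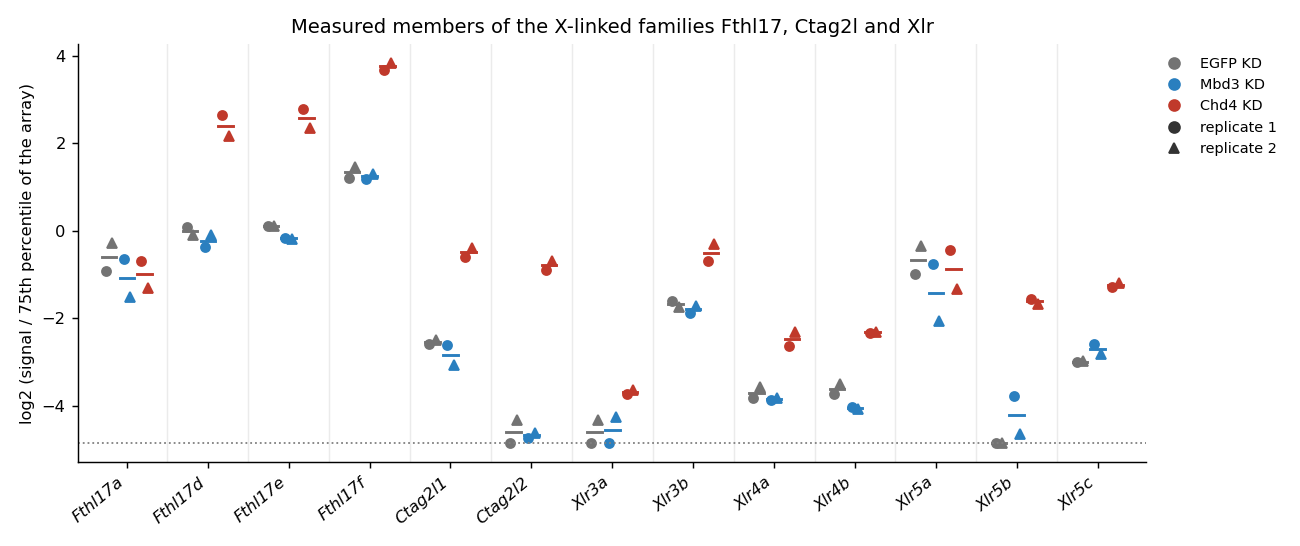
Chd4 KD and Mbd3 KD levels beside EGFP KD for the measured members of X-linked families (vertical axis, log2 of signal over the array's 75th percentile; grey EGFP KD, blue Mbd3 KD, red Chd4 KD; circles replicate 1, triangles replicate 2, bars the mean of 2 arrays, dotted line the floor at -4.86). Fthl17d, Fthl17e and Fthl17f and both Ctag2l genes stand apart in Chd4 KD, while Fthl17a does not. Of the 7 Xlr genes, 5 were called higher in Chd4 KD than in Mbd3 KD, where 1.04% of all genes were. Rhox genes are not drawn.

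The families were picked after their values were seen and are given as a description. In the Xlr family of lymphocyte and germ cell nuclear proteins, 5 of 7 measured members were called higher in Chd4 KD than in Mbd3 KD and none was lower. Over all genes 1.04% were called higher and 0.412% lower. Xlr5b lay at the floor on both EGFP KD arrays, at -3.79 and -4.65 in Mbd3 KD, and at -1.56 and -1.67 in Chd4 KD. It was at least 20.4-fold higher in Chd4 KD than in EGFP KD, where its probe was not well above background. In the Rhox cluster of reproductive homeobox genes, 6 of 19 measured members were called higher and none lower, beside the same shares of all genes. They included Rhox2c, Rhox2e and Rhox2h (differences of 2.02, 1.82 and 1.8) and Rhox4a and Rhox4g (1.69 and 1.49). Such relatives may also share a probe's signal and are not separate responses. Rhox2c read -2.34 and -2.15 in EGFP KD, -1.54 and -1.46 in Mbd3 KD, and 0.55 and 0.49 in Chd4 KD, so that Mbd3 KD lay between the control and Chd4 KD. The Rhox5 probe was saturated on all 6 arrays and gives no comparison, and Rhox6 was higher in Mbd3 KD (1.42 and 1.94) than in Chd4 KD (0.61 and 0.71) without passing the test. Of the 100 risers with a promoter in the table, 20 (20%) lay on the X chromosome, against 4.11% of all tested genes with a promoter. The 20 included 3 Fthl17, 2 Ctag2l, 4 Xlr and 2 Rhox genes, which as relatives are not independent. Of the 30 genes with a promoter that fell with Chd4 KD alone, 3 (10%) lay on the X chromosome. Among X-linked genes with a promoter, 28 of 632 (4.43%) were called higher in Chd4 KD than in Mbd3 KD, against 154 of 14754 (1.04%) elsewhere. Those called lower numbered 7 (1.11%) on the X chromosome and 84 (0.569%) elsewhere, and the medians of the groups were 0.06 and 0.03.

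Vgf, Cfap43 and Gm16367 were the other leading risers. Vgf, a secreted neuroendocrine peptide precursor, read -3.35 and -3.32 in EGFP KD, -3.28 and -3.42 in Mbd3 KD, and -0.77 and -0.82 in Chd4 KD. The control and Mbd3 KD arrays were interleaved and both Chd4 KD arrays were higher, by 5.87-fold over Mbd3 KD (log2 2.55 ± 0.14, SE, limma adjusted p = 0.000818). Cfap43, a protein of motile cilia and sperm tails, was at the floor on all EGFP KD and Mbd3 KD arrays and at -2.07 and -2.3 in Chd4 KD. It was at least 8.45-fold higher in Chd4 KD than in Mbd3 KD (limma adjusted p = 0.00078), although its other probe differed by 0.06. The floor removed the spread of its EGFP KD and Mbd3 KD values, which lowers that p. It also made those values equal, so that the lack of change in Mbd3 KD was set by the floor. Gm16367 also rose, by 2.63 ± 0.34 over Mbd3 KD, a call lost under 9 of 15 alternatives.

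**Figure D3:**
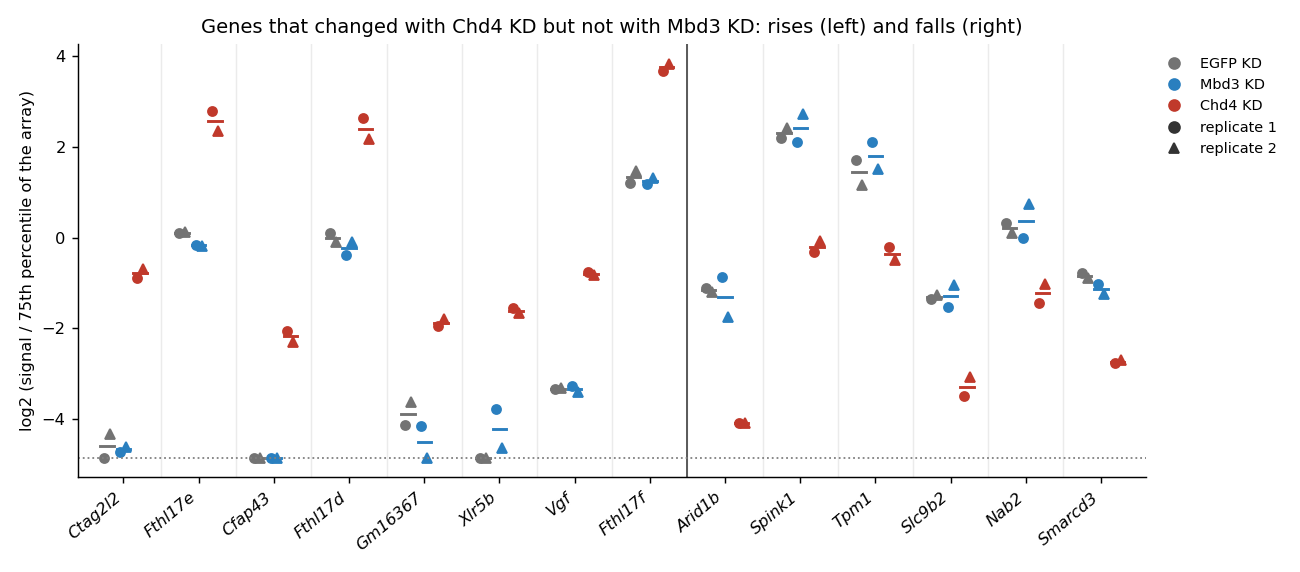
The genes with the largest rises and falls among those called in Chd4 KD and not in Mbd3 KD (vertical axis, log2 of signal over the array's 75th percentile; grey EGFP KD, blue Mbd3 KD, red Chd4 KD; circles replicate 1, triangles replicate 2, bars the mean of 2 arrays, dotted line the floor at -4.86). The red points leave the grey and blue ones, upward to a difference of 3.88 for Ctag2l2 and downward to -2.78 for Arid1b.

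Fewer genes fell with Chd4 KD alone. There were 40 (0.134% of the genes tested), with a median of -1.19 against EGFP KD, and their probes were brighter in control cells, with a median EGFP KD level of 0.62. Spink1, a secreted protease inhibitor, read 2.2 and 2.41 in EGFP KD, 2.1 and 2.72 in Mbd3 KD, and -0.33 and -0.07 in Chd4 KD. The control and Mbd3 KD arrays overlapped and the Chd4 KD arrays lay below them, a 6.12-fold difference (log2 -2.61 ± 0.39, SE, limma adjusted p = 0.0302). Slc9b2, a sodium-proton exchanger, lay below Mbd3 KD by 2 ± 0.25 on the log2 scale and Nab2, a corepressor of Egr factors, by 1.61 ± 0.28. Against EGFP KD these 2 genes differed by -1.98 and -1.45. The other, dim Nab2 probe differed by 0.02 between the knockdowns, and the Nab2 call was lost under 14 of 15 alternatives. The Spink1 call was lost under 9 and the Slc9b2 call under 7.

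The fallers named for the size of their difference included 2 subunits of another remodelling complex, Smarcd3 and Arid1b. Its other subunits were not counted, and no gene was called in the list of 14 other chromatin remodellers (median -0.15). Smarcd3, a subunit of the BAF complex, read -0.79 and -0.89 in EGFP KD, -1.03 and -1.24 in Mbd3 KD, and -2.78 and -2.7 in Chd4 KD. Both Chd4 KD values lay below the other 4, and the difference from Mbd3 KD was -1.61 ± 0.17 (SE, limma adjusted p = 0.00837). Arid1b, a BAF subunit with a DNA-binding domain, read -0.87 and -1.76 in Mbd3 KD and -4.1 and -4.09 in Chd4 KD, a difference of -2.78 ± 0.36 by 1 of its 3 probes, while the other 2 lay at or near background and differed by 0 and 0.55. Tpm1, an actin-binding tropomyosin, lay 2.16 ± 0.33 lower in Chd4 KD than in Mbd3 KD by the probe used, and differed from EGFP KD by -1.8. Its 5 probes ranged from -2.16 to 0.36 between the knockdowns, and its call was lost under 9 of 15 alternatives. The Smarcd3 promoter (GRCm38.p6, RefSeq, chr5:24601953-24602252, minus strand) is shown because it is the CG-rich counterpart of the X-linked promoters above, with 40 CG dinucleotides in capitals.
Smarcd3: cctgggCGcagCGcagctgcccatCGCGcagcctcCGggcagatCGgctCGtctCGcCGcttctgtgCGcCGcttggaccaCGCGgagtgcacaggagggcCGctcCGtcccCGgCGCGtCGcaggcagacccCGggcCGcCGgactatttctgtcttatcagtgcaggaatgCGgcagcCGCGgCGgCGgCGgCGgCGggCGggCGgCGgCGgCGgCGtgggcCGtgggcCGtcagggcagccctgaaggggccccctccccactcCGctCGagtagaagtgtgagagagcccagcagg
The windows of the 30 fallers with a promoter in the table held a median of 24 CG dinucleotides (2 to 51), those of the 100 risers 9.5 (0 to 41), and those of all tested genes with a promoter 15. Windows with under 5 CG dinucleotides made up 3.33% of the fallers, 27% of the risers and 23.9% of all tested genes. The letters CACGTG, an E-box that reads the same on both strands, stood in 11% of the risers' windows, 3.33% of the fallers' and 8.6% of all. The risers and fallers also differed in control level, as given above, and no set was matched for it.

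The genes that followed Mbd3 and not Chd4 were few. Of the 25, 11 (0.0369% of the genes tested) were higher in Mbd3 KD, with a median of 1.23 against EGFP KD, and 14 (0.0469%), Mbd3 included, were lower, with a median of -1.03. The number depended on single arrays and ranged from 1 to 27 as arrays were left out one at a time. With slide as a block it was 7, of which 3 were among the 25.

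Among the rises in Mbd3 KD, Mvb12b, a subunit of the ESCRT-I sorting complex, read -2.01 and -1.97 in EGFP KD, -0.36 and -0.06 in Mbd3 KD, and -1.89 and -1.92 in Chd4 KD. Its control and Chd4 KD values lay close together, and Chd4 KD was 3.23-fold below Mbd3 KD. Sdcbp2, a PDZ-domain adaptor, differed by -1.07 ± 0.15, Rab11fip5, an effector of recycling endosomes, by -0.93 ± 0.16, Prss16, a thymic serine protease, by -0.9 ± 0.13, and Creb3l3, a membrane-bound transcription factor of liver and gut, by -0.86 ± 0.13. The Rab11fip5 call was lost under 14 of 15 alternatives, the Sdcbp2 and Creb3l3 calls under 11, the Prss16 call under 10 and the Mvb12b call under 9.

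Among the falls, Vrtn, a vertebral development gene, gave the largest difference after Mbd3. It read -2.56 and -2.37 in EGFP KD, -4.52 and -4.86 in Mbd3 KD, and -2 and -1.96 in Chd4 KD. The Mbd3 KD arrays lay at or near the floor and the Chd4 KD arrays slightly above the control, a difference of 2.71 ± 0.26 (SE, limma adjusted p = 0.00594). Its promoter (GRCm38.p6, RefSeq, chr12:84640769-84641068, plus strand), printed as that of the leading gene lost with Mbd3 alone, held 7 CG dinucleotides, in capitals.
Vrtn: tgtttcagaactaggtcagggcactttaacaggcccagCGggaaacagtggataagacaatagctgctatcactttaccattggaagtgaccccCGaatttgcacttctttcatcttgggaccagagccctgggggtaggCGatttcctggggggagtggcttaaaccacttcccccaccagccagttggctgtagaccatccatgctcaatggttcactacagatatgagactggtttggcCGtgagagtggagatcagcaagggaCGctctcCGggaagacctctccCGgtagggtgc
Ltbr, the lymphotoxin beta receptor, read -2.49 and -2.76 in EGFP KD, -3.59 and -3.85 in Mbd3 KD, and -2.35 and -2.45 in Chd4 KD, 2.49-fold higher in Chd4 KD than in Mbd3 KD. Gata3, a transcription factor of trophoblast and T cells, was not well above background on either Mbd3 KD array and was at least 2.8-fold higher in Chd4 KD. Slc51a, a steroid and bile acid transporter subunit, lay at the floor on both Mbd3 KD arrays and at -3.53 and -3.11 in Chd4 KD, so that the floor sets its difference. Ccn2, a matricellular target of Yap and Tead factors, differed by 1.08 ± 0.18 and lost its call under 14 of 15 alternatives. Ltbr lost its call under 8, and Gata3 and Slc51a under 7.

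**Figure D4:**
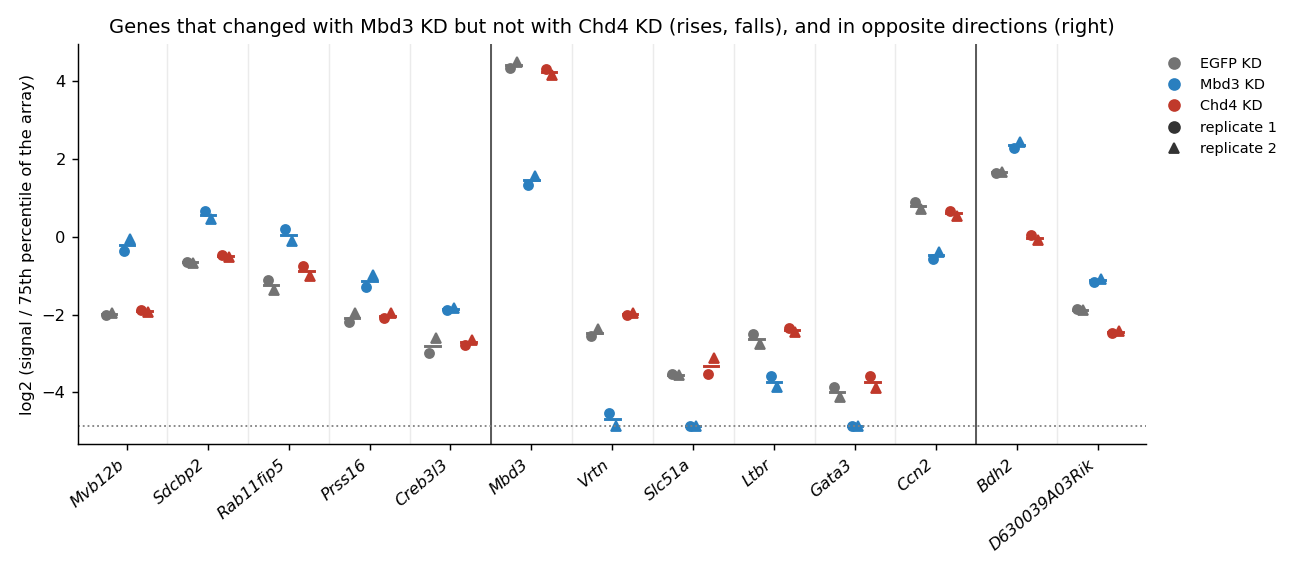
Leading genes called in Mbd3 KD and not in Chd4 KD, with the 2 called in opposite directions at the right (vertical axis, log2 of signal over the array's 75th percentile; grey EGFP KD, blue Mbd3 KD, red Chd4 KD; circles replicate 1, triangles replicate 2, bars the mean of 2 arrays, dotted line the floor at -4.86). Blue points leave the grey and red ones, as for Mvb12b (-0.36 and -0.06 against -1.89 and -1.92) and Vrtn (-4.52 and -4.86 against -2 and -1.96).

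In 2 genes the knockdowns moved the transcript in opposite directions with both changes called against the control. Opposite movement with a call in a single knockdown, and an unadjusted p under 0.05 in the other, was more frequent. It held for 25 genes called in Chd4 KD and 5 called in Mbd3 KD. Bdh2, a cytosolic dehydrogenase linked to iron handling, read 1.65 and 1.66 in EGFP KD, 2.29 and 2.43 in Mbd3 KD, and 0.05 and -0.09 in Chd4 KD. The groups did not overlap, and Bdh2 was 5.22-fold lower in Chd4 KD than in Mbd3 KD (log2 -2.38 ± 0.09, SE, limma adjusted p = 0.00078). The transcript D630039A03Rik read -1.86 and -1.89 in EGFP KD, -1.15 and -1.08 in Mbd3 KD, and -2.48 and -2.41 in Chd4 KD, a difference of -1.33 ± 0.1. The Bdh2 window (GRCm38.p6, RefSeq, chr3:135280971-135281270, plus strand) is printed as that of the gene with the larger difference of these 2, with its 6 CG dinucleotides in capitals.
Bdh2: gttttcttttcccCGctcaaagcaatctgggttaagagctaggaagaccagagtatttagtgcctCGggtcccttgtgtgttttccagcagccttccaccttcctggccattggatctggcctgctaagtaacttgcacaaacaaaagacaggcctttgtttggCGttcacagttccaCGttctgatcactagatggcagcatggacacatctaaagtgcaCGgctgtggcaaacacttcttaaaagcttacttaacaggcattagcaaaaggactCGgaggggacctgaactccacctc

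The largest remaining differences included genes outside both classes. Napsa, an aspartic protease, read -0.78 and -0.94 in EGFP KD, 1.12 and 1.75 in Mbd3 KD, and -1.54 and -1.34 in Chd4 KD, and was 7.34-fold lower in Chd4 KD than in Mbd3 KD (limma adjusted p = 0.0019). Slc38a5, an amino acid transporter, read -1.37 and -1.14 in EGFP KD, 1.5 and 1.6 in Mbd3 KD, and -0.47 and -0.44 in Chd4 KD. For Slc38a5 both knockdowns lay above the control and Mbd3 KD was 4.01-fold the higher. Fstl1, a secreted glycoprotein, differed by -1.91 ± 0.24 and Ppp1r14d, a phosphatase inhibitor, by -1.83 ± 0.19. Both lay below the control in Chd4 KD and above it in Mbd3 KD, with neither change called. In the other direction, Krt23 and Aoc1 belonged to the Chd4 class. The keratin Krt23 read -4.22 and -3.76 in EGFP KD, -3.37 and -3.46 in Mbd3 KD, and -0.89 and -1.09 in Chd4 KD, and the diamine oxidase Aoc1 was 5.28-fold higher in Chd4 KD than in Mbd3 KD. Olfr330, an olfactory receptor gene, and Slc5a4b, of the sodium-glucose transporter family, were higher by 2.67 ± 0.46 and 2.44 ± 0.29. Olfr330 was well above background on 1 of 2 Mbd3 KD arrays, differed by 1.84 and 3.5 in the replicate 1 and 2 pairs, and lost its call under each of 15 alternatives. Cbr3, a carbonyl reductase chosen after its values were seen, fell in steps, from 4.44 and 4.25 in EGFP KD to 2.38 and 2.29 in Mbd3 KD and 1.15 and 0.88 in Chd4 KD.

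The contractile list, of muscle genes, held the most calls between Chd4 KD and Mbd3 KD of the lists counted. Of 19 contractile genes measured, 5 were called higher in Chd4 KD than in Mbd3 KD and 1 lower. The shares of all genes were 1.04% and 0.412%, and the list median was 0.55 beside 0.06 for all genes. Against EGFP KD, 5 were higher and 1 lower in Chd4 KD, where 1.96% and 1.24% of all genes were, and none was called in Mbd3 KD, where 0.479% of all genes were higher and 0.285% lower. Myl4, an atrial and embryonic myosin light chain, read 1.09 and 1.17 in EGFP KD, 1.56 and 1.83 in Mbd3 KD, and 3.65 and 3.38 in Chd4 KD. Its Chd4 KD values were the highest, and the difference was 1.81 ± 0.14 (SE, limma adjusted p = 0.00248). Cardiac troponin Tnnt2 was at the floor on the EGFP KD and Mbd3 KD arrays and was at least 2.98-fold higher in Chd4 KD than in Mbd3 KD. The floor made its EGFP KD and Mbd3 KD values equal and without spread, so that its lack of change in Mbd3 KD was set by the floor. The cardiac myosin heavy chain Myh7 was 3.22-fold higher (limma adjusted p = 0.0497), a call lost under 12 of 15 alternatives. The smooth muscle light chain Myl9 differed by 1.42 ± 0.17 and the filament protein Des by 1.36 ± 0.16. Des read -3.38 and -3.16 in EGFP KD, -4.09 and -4.29 in Mbd3 KD, and -2.84 and -2.82 in Chd4 KD. It was called against EGFP KD in neither knockdown. The 5 called higher in Chd4 KD against EGFP KD included the myosin heavy chain Myh6 in place of Des. The 1 member lower was Tpm1. The mesoderm list gave 1 call in 14, the transcription factor Snai1 (1.21 ± 0.17, higher in Chd4 KD), whose call was lost under 14 of 15 alternatives.

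Extraembryonic and pluripotency lists held 0 to 2 calls each, to be read beside 1.04% of all genes called higher and 0.412% lower in Chd4 KD than in Mbd3 KD. Of 16 trophectoderm genes, Gata3 and Esx1, a placental homeobox gene, were called higher, with a list median of 0.45. Esx1 read -3.3 and -3.73 in EGFP KD, -2.68 and -2.59 in Mbd3 KD, and -1.04 and -0.89 in Chd4 KD, so that Mbd3 KD again lay between. Of 14 primitive endoderm genes, the laminin Lama1 (-1.27 ± 0.15) and the endocytic partner of cubilin Amn (-0.95 ± 0.15) were called lower in Chd4 KD than in Mbd3 KD. Lama1 read 3.07 and 3.28 in EGFP KD, 2.87 and 3.01 in Mbd3 KD, and 1.62 and 1.71 in Chd4 KD. Amn was instead raised above the control in both knockdowns, to 0.14 and 0.61 in Mbd3 KD and -0.66 and -0.51 in Chd4 KD from -2.21 and -2.16. Of 15 naive pluripotency genes, Dppa3, a maternal and germ cell factor, was called, 2.04-fold higher in Chd4 KD than in Mbd3 KD. Dppa3 read 0.51 and 0.12 in EGFP KD, -0.63 and -0.73 in Mbd3 KD, and 0.28 and 0.43 in Chd4 KD. Its Chd4 KD values thus lay within those of the control, and its Mbd3 KD values lay below them. The Amn call between the knockdowns was lost under 13 of 15 alternatives, the Lama1 and Dppa3 calls under 9 and the Esx1 call under 8. None of the 10 primed epiblast genes was called by limma, and the largest difference among them was 1.75 ± 0.32 for the Wnt effector Lef1 (adjusted p = 0.0536). None of 9 two-cell stage genes was called, although Zscan4f read -0.43 and -0.12 in Mbd3 KD and 1.22 and 1.29 in Chd4 KD (difference 1.53 ± 0.49, limma adjusted p = 0.284).

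The other lists held at most 2 calls each between the knockdowns, again beside 1.04% of all genes higher and 0.412% lower. In the ChAHP and HP1 list, 1 of 8 genes was called, the HP1 protein Cbx1, which read -3.35 and -2.55 in Mbd3 KD and -1.22 and -0.72 in Chd4 KD. Adnp was among the 38 genes at the floor on the Chd4 KD replicate 2 array. Its probe read 2.18 and -4.86 in Chd4 KD and gives no comparison, and its other, dimmer probe differed by 0.32. Of 23 germline genes, the synaptonemal complex protein Syce1 (1.4 ± 0.21) and the testis antigen Tex101 (1.01 ± 0.18) were called higher. Of 24 interferon genes, the peptide transporter Tap1 was at least 2.7-fold higher and the oligoadenylate synthetase relative Oasl1 differed by -0.97 ± 0.15. Oasl1 was called higher than EGFP KD in both knockdowns, by 1.14 in Chd4 KD and 2.11 in Mbd3 KD. The Oasl1 call between the knockdowns was lost under 13 of 15 alternatives and the Tap1 call under 12. Chac1, a glutathione-degrading enzyme, was the 1 Atf4 stress gene of 22 called (-1.13 ± 0.15), and Ovol1, an epithelial transcription factor, the 1 epithelial gene of 26 (0.66 ± 0.1). The Ovol1 call was lost under each of 15 alternatives and the Tex101 call under 14. The Syce1 and Chac1 calls were lost under 11 and the Cbx1 call under 9. Of 9 fibroblast genes, the collagen gene Col1a1 was called, at -4 and -4.2 in Mbd3 KD and -1.8 and -1.9 in Chd4 KD. The summed fibroblast level was 49.7 to 50.4 in EGFP KD, 45.3 to 45.6 in Mbd3 KD and 42.1 to 47.7 in Chd4 KD. No gene was called by limma among 14 other chromatin remodellers, 18 neural, 24 imprinted, 26 p53 target, 14 DNA methylation, 16 polycomb or 16 calcium and synaptic channel genes, whose list medians lay between -0.15 and 0.26.

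The pairs of arrays with the same replicate number were set beside each other because the replicate 2 arrays shared a slide. Over all genes the median absolute difference was 0.285 in the replicate 1 pair and 0.237 in the replicate 2 pair, and 3626 and 1980 genes differed by over 2-fold. Of these, 567 did so in both pairs in the same direction and 45 in opposite directions. Pearson's r between the pairs was 0.255 across genes, which are not independent replicates. When each replicate 1 array was first set against the EGFP KD array on its own slide, r was 0.201. The 433 called genes with a replicate 1 pair and the 432 with a replicate 2 pair all differed in the called direction, which the call itself favours, and 275 exceeded 2-fold in the replicate 2 pair. Ctag2l2 differed by 3.84 and 3.92 in the replicate 1 and 2 pairs and by 3.32 with slide-matched controls, Bdh2 by -2.24, -2.53 and -2.25, and Vrtn by 2.52, 2.9 and 2.32. With slide as a block limma called 372 genes, 243 of them among the 434.

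**Figure D5:**
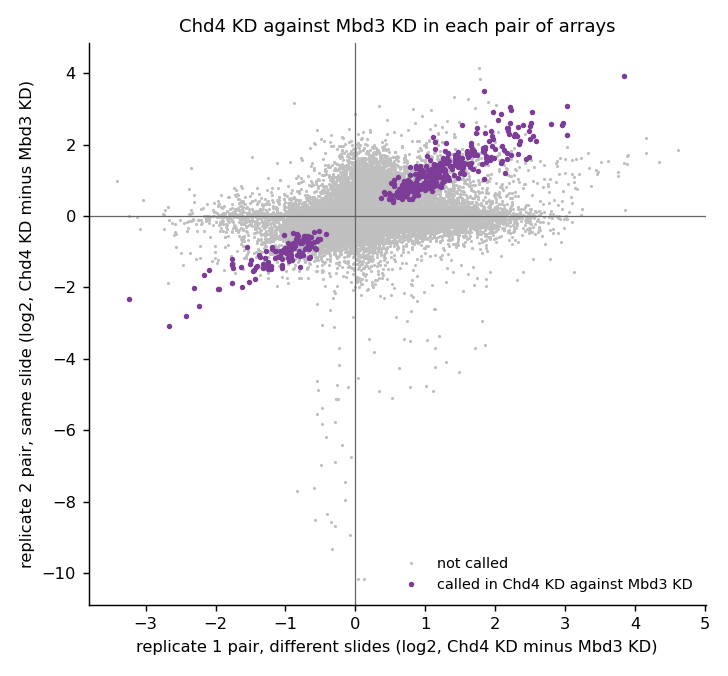
Difference between Chd4 KD and Mbd3 KD for each gene in the replicate 1 pair (horizontal axis, log2, arrays on different slides) and the replicate 2 pair (vertical axis, log2, arrays on the same slide). The called genes have the same sign on both axes, r over all genes is 0.255, and the 38 genes under -4 on the vertical axis are those at the floor on the Chd4 KD replicate 2 array.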

How the data were processed

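RNA of 12 dishes (6 groups of 2, which the methods call biological replicates) was hybridised to one-colour Agilent arrays. Per the labels and the submitters' processing notes, the authors extracted spots with Agilent Feature Extraction 10.7.1.1. The deposited scanner files hold each spot's intensity as background-subtracted processed signal, with flags. A deposited table of the authors holds log2 values relative to EGFP KD and was used only as an alternative. Where separate cultures are not stated, p-values measure the spread between these samples, which may be technical, and the number of arrays limits the precision.

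Control spots (1377) and flagged spots (92 to 306 an array) were left out, signals were divided by the array's 75th percentile, values under 0.0344 (log2 -4.86) were set to that floor, and log2 was taken. The floor narrows the fold of dim genes. Where neither array of a group had a probe well above background, folds are given as lower bounds against the lowest signal well above background on each array. Spots of a probe were averaged, 1 probe stood for each gene, and a value on at least 8 of 12 arrays was required. Symbols came from a GRCm38.p6 gene table by accession (71.4% of spots), and 19391 of 29844 genes had one. limma 3.58.1 in R 4.3.3 was fitted to all 6 groups with Benjamini-Hochberg adjustment over all genes, after a test on simulated data.

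The genes, classes and lists were chosen with earlier results of these data known. Named genes were the NuRD subunits, the largest called differences of each class in each direction, genes called in opposite directions, the 4 largest remaining differences each way, and up to 4 called members of each list, others being named as chosen later; 1 gene that this rule names is not reported here. Alternatives were quantile normalization, normexp, other filters, probe means, slide and replicate blocks, fewer groups, other thresholds, single arrays left out and, chosen after seeing the data, a lower floor.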

Additional observations from a re-analysis of the deposited data

Results flagged for a closer look

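Bdh2 stood out because its responses to the knockdowns, both called against EGFP KD, were in opposite directions, down in Chd4 KD and up in Mbd3 KD. The test of the difference also passed (log2 -2.38 by limma). D630039A03Rik showed the same arrangement with a difference of -1.33.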

How the results depend on the processing

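No named gene called between the knockdowns changed direction. Uncalled differences near 0 did cross it, as for Hdac1 (-0.7 to 0.04) and Gatad2b (-0.12 to 0.45). Against 434 genes between the knockdowns, 213 dependent on Chd4 alone and 25 on Mbd3 alone, normexp gave 13, 5 and 1 (61.5% of calls higher in Chd4 KD, against 71.7%), probes well above background on all 4 arrays 197, 106 and 8, the lower floor 153, 89 and 2 (median of all genes 0.11), and omission of the Tet1 KD and Mbd2 KD arrays 126, 68 and 0. With EGFP KD, Mbd3 KD and Chd4 KD arrays only, limma called 0, 0 and 0 (2894 at an unadjusted p under 0.05), and with the 4 arrays 0 (2713), Mbd3 staying at 2.79 with adjusted p of 0.062 and 0.33. The Mbd3 class held 13 under quantile normalization, 9 with a trended robust prior (263 genes in all) and 7 with slide as a block. An adjusted p under 0.1 gave 715, 346 and 53, and under 0.01 gave 129, 72 and 2. Without the test of the difference the classes held 804 and 79. The authors' table, of 12459 genes, gave 1403, 608 higher and 795 lower. The correlation of the replicate 1 pair with the replicate 2 pair was 0.197 under normexp. The causes were not tested, except that fewer arrays or genes enter by construction.

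Leaving out 1 array at a time, the genes between the knockdowns numbered 129 to 260 (260 without either EGFP KD array, 144 and 169 without Mbd3 KD replicates 1 and 2, 218 and 129 without Chd4 KD replicates 1 and 2). The Chd4 class ranged from 77 to 143, the Mbd3 class from 1 (without EGFP KD replicate 1) to 27 (without Mbd3 KD replicate 2, 3 of them among the 25), Chd4 mRNA from -1.69 to -1.08 and Mbd3 mRNA from 2.68 to 2.90. A lone array was assumed to vary like the other groups. With the replicate block, where the arrays share only a number (correlation of deviations 0.428), 438, 225 and 22 genes were called, 359 of the 438 among the 434, and Chd4 mRNA at -1.39 passed (adjusted p = 0.042), as it did with slide as a block (-1.30, 0.036). Of 51 named called genes, all 51 lost their call with the arrays of 3 groups only, 34 and 31 without Chd4 KD replicates 2 and 1, 29 and 26 without Mbd3 KD replicates 2 and 1, 16 without either EGFP KD array, 31 without the Tet1 KD and Mbd2 KD arrays, 43 under normexp, 20 under the lower floor, 14 with slide as a block, 13 each under quantile normalization and the trended robust prior, and 5 with the replicate block.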
